A study of Mus musculus with 8 samples.

Results

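The Bcl2 family holds the proteins that decide whether the mitochondria of a cell stay intact or release the contents that start apoptosis. A set of 10 of its genes was chosen by name, namely the pro-survival members Bcl2, Bcl2l1, Mcl1 and Bcl2a1b, the effectors Bax and Bak1, and the BH3-only members Bcl2l11, Bid, Bad and Bbc3. Of these 10 genes 9 had a row among the 13744 genes of the deposited table, and Bcl2a1b was not analysed here. All 9 passed the filter, a mean log2 CPM of at least that of 1 CPM, and were tested. CPM stands for counts per 1000000 of the scaled total of a library, which is not the plain sum of its reads assigned to genes.

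Bulk RNA sequencing was done on classical monocytes (Ly6C-high) taken from the bone marrow of mice, the cells that home to inflamed tissue and that also give rise to the Ly6C-low patrolling monocytes. The series, which concerns how transcription factors direct that step, holds 8 libraries of 4 genotypes with 2 libraries each. The genotypes are wild type, Bcl6 cKO (a conditional knockout of the transcriptional repressor Bcl6), Irf2 KO (a knockout of the interferon regulatory factor Irf2) and Nr4a1 KO (a knockout of the orphan nuclear receptor Nr4a1, needed for patrolling monocytes). The sources used here do not give the Cre driver of the Bcl6 cKO, the alleles, the strain, the age of the mice or any treatment. They also do not say that the 2 replicates of a genotype are different mice, and p-values then cover only a spread between samples that may be technical.

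Pro-survival proteins of this family (Bcl2, Bcl-xL from Bcl2l1, Mcl-1 and A1) bind and restrain the effectors Bax and Bak, which otherwise form pores in the outer mitochondrial membrane and let cytochrome c out. BH3-only proteins such as Bim (from Bcl2l11), Bid, Bad and Puma (from Bbc3) sense stress and either occupy the pro-survival proteins or activate the effectors. Myeloid cells are short-lived, and Mcl-1, a protein with fast turnover, and A1 are known for keeping them alive. Patrolling monocytes of mice without Nr4a1 are known to die in the bone marrow, so the balance of these genes in their precursors is of interest. Many of these proteins are also controlled after transcription, and the values here are of RNA.

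Each library held 46617756 to 62633123 reads assigned to genes, and 1 CPM stood for 47.9 to 61.8 reads. The targeted genes were examined first. The level of Nr4a1 was 4.64 and 5.29 log2 CPM in wild type and 2.32 and 2.98 in the Nr4a1 KO libraries. It was also low in Irf2 KO, at 2.59 and 2.52, and stood at 4.49 and 4.56 in Bcl6 cKO. Irf2 stood at 7.18 and 7.14 log2 CPM in wild type and at 6.50 and 6.69 in Irf2 KO. Bcl6 stood at 4.66 and 4.64 log2 CPM in wild type and at 6.53 and 6.40 in the libraries labelled Bcl6 cKO, which is higher and not lower, and at 3.37 and 3.79 in Irf2 KO. Reads over a whole gene do not check the loss of 1 exon, so every difference given for Bcl6 cKO is a difference of the libraries that carry this label. The summed level of 8 classical monocyte markers was 29614 to 34278 CPM in wild type, 30758 to 31943 in Bcl6 cKO, 18749 to 21562 in Irf2 KO and 31134 to 36091 in Nr4a1 KO. Most of that sum was Lyz2, at 23089 to 26800 CPM in wild type and 11573 to 12697 in Irf2 KO. Ly6c2, which encodes the marker that names these cells, was at 3747 to 4755 CPM in wild type and 5003 to 6247 in Irf2 KO, so the markers did not all go one way. Of the 8, 4 were called lower in Irf2 KO. All 12 neutrophil markers were in the table, with a summed level of 1882 to 2235 CPM in wild type, 1041 to 1254 in Bcl6 cKO, 514 to 1202 in Irf2 KO and 2146 to 2586 in Nr4a1 KO. The 7 of 8 B cell markers in the table summed to 88.3 to 89.0 CPM in wild type, 43.4 to 54.6 in Bcl6 cKO, 38.1 to 43.8 in Irf2 KO and 59.0 to 91.2 in Nr4a1 KO, with Ebf1 at 0 and 2 reads in Irf2 KO. The 2 of 6 erythroid markers in the table summed to 17.0 to 17.2 CPM in wild type, 4.66 to 10.3 in Bcl6 cKO, 1.65 to 2.93 in Irf2 KO and 6.41 to 9.04 in Nr4a1 KO. The sum of the 2 of 8 T and NK cell markers in the table went the other way. That sum was 7.54 to 10.3 CPM in wild type and 17.0 to 21.0 in Bcl6 cKO. It was 15.2 to 16.6 in Irf2 KO and 14.6 to 18.6 in Nr4a1 KO. Nkg7 carried most of it in all 4 genotypes, and Cd3g did not rise in every knockout. Cd3g had 10 to 14 reads in wild type and 2 to 14 in Bcl6 cKO. It had 1 to 4 reads in Irf2 KO and 62 to 72 in Nr4a1 KO. The 4 of 5 plasmacytoid dendritic cell markers in the table summed to 142 to 230 CPM in wild type, 200 to 220 in Bcl6 cKO, 395 to 470 in Irf2 KO and 94.3 to 174 in Nr4a1 KO. Bst2 carried the higher sum of Irf2 KO, at 349 to 417 CPM against 83.8 to 158 in wild type, while Ly6d was at 0.0275 to 0.114 CPM there against 5.43 to 6.01. In bulk samples, fewer cells of a type and less RNA per cell cannot be told apart. The part that these shifts of marker RNA have in the results below was not tested.

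Promoter sequences are shown for the genes whose RNA differed. RefSeq start sites on GRCm38.p6 were found for all 9 genes. The 250 bases before the start are printed for Bax, Mcl1, Bcl2l1 (its outermost of 3 starts) and Bcl2l11 (its first of 2 starts), the 4 genes that differed from wild type in the tests below and whose window lies outside their own annotated exons. Each is written 5′ to 3′ on the strand of the gene. Capitals mark matches, on either strand, to any of 6 short motifs given after the sequences.
Bax, chr7:45466899-45467148, minus strand: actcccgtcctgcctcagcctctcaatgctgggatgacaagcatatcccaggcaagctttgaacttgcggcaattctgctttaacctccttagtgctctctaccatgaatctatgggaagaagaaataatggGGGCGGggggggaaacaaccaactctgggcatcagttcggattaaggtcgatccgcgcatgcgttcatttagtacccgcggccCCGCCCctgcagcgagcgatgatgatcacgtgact
Mcl1, chr3:95658471-95658720, plus strand: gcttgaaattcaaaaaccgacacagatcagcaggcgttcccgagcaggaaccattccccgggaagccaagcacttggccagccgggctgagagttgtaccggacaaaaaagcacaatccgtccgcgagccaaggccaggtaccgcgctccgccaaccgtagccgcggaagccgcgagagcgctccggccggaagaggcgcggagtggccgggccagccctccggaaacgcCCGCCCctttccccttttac
Bcl2l1, chr2:152831729-152831978, minus strand: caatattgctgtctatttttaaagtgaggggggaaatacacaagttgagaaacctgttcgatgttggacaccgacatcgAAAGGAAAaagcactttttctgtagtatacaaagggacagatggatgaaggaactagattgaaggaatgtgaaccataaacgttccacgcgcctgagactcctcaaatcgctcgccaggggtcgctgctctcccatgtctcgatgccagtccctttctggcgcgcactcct
Bcl2l11, chr2:128125788-128126037, plus strand: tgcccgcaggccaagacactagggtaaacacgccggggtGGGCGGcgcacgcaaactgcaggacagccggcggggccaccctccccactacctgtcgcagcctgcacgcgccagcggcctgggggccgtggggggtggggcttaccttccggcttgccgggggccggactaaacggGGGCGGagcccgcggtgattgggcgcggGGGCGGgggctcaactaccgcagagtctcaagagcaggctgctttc
The motifs were AANNGAAA (core of the interferon regulatory factor element), TTCCTNGAA (Bcl6), AAAGGTCA (the monomer element of Nr4a1), GAGGAAGT (PU.1), the GC box and the TATA box. The GC box was searched as GGGCGG, which 32.7% of all 32851 RefSeq promoter windows hold, and starts at bases -118 and -35 of Bax, at -20 of Mcl1 and at -211, -74 and -46 of Bcl2l11. The interferon core, held by 21.3% of windows, has 1 match in the 4 printed windows, at -171 of Bcl2l1, and 1 at -75 of another of its 3 windows. None of the 9 genes holds the letters searched for Bcl6 (1.31% of windows) or Nr4a1 (1.34%) in its windows. The same was true of the TATA box, searched as TATAAA and held by 12.4% of windows. The PU.1 letters, held by 2.44% of windows, have a match at -22 of Bak1, whose window lies wholly within annotated exons and is not printed, and at -189 of 1 of the 2 windows of Bad. These are matches of letters only, and no motif searched overlaps another in the 4 windows printed.

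Per length of annotated exon, Bax, Mcl1, Bid and Bad lay above the rest of the 9 genes in all 4 genotypes. On the scale of log2 CPM per kb of annotated exon, the wild-type mean level was 6.41 for Bax, 5.54 for Mcl1, 5.54 for Bid and 5.29 for Bad. It was 3.06 for Bcl2l1 and 2.49 for Bak1, and 1.24 for Bcl2l11, 0.71 for Bbc3 and -0.43 for Bcl2. Bcl2, the founding member of the family, was thus the scarcest of the 9 per length, and it was the scarcest in each genotype mean. That place depends on the division by exon length, which is 9157 bases for Bcl2 and 2124 for Bbc3. In CPM without that division, Bbc3 was the scarcest in every library. Mid-order neighbours changed places between genotypes, since Bak1 lay above Bcl2l1 in Irf2 KO (3.71 against 2.28) and below it in wild type. Shares of the pro-survival genes were taken over Bcl2, Bcl2l1 and Mcl1, the 3 of the chosen set with a row. Other family genes with rows, among them Bcl2l2, Bcl2a1a and Bcl2a1d, were left out of this sum. Mcl1 made up 82.7% and 84.6% of the summed level per kb in the wild-type libraries. In the 6 knockout libraries it made up between 87.7% and 92.7%. Bcl2l1 made up 15.6% and 14.4% of that sum in wild type and 6.78% to 10.7% in the knockout libraries, so the wild-type and knockout ranges did not overlap. Lengths are those of all annotated exons, so the order of genes close together, such as Mcl1 and Bid, depends on which transcripts the cells make.

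**Figure D1:**
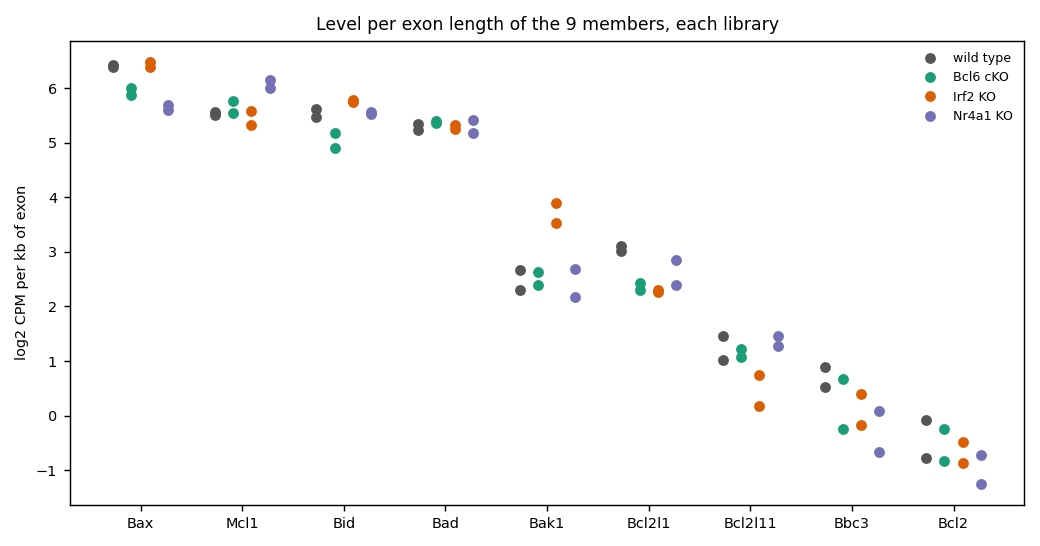
Level of each of the 9 genes in log2 CPM per kb of annotated exon, with 1 point for each of the 8 libraries, coloured by genotype. Bax, Mcl1, Bid and Bad sit between 4.91 and 6.49, Bcl2l1 and Bak1 between 2.17 and 3.90, and Bcl2l11, Bbc3 and Bcl2 at or below 1.46.

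Of the 9 genes, 2 differed between Bcl6 cKO and wild type (both lower), where 5.01% of all 12752 genes tested were called (1.36% higher and 3.65% lower). In Irf2 KO 3 differed from wild type (1 higher, 2 lower) against 21.6% of all genes (9.26% higher and 12.3% lower), which for 9 genes is a share of the same order. In Nr4a1 KO 2 differed (1 higher, 1 lower) against 15.1% of all genes (3.94% higher and 11.2% lower). A call means an adjusted p under 0.05 in limma's moderated test with Benjamini-Hochberg adjustment over all genes. The median log2 difference over the 9 genes was -0.11, -0.08 and -0.07 in the order just used, beside -0.01, -0.04 and 0.01 over all genes tested. The median level of all genes was itself lower than in wild type by 0.07, 0.10 and 0.13 (log2), and values after centring each library on its median are given where a call depends on it. After that centring the median log2 difference over all genes tested was 0.06, 0.06 and 0.14. Centring thus moved the typical gene above its wild-type level, which makes falls smaller and rises larger.

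**Figure D2:**
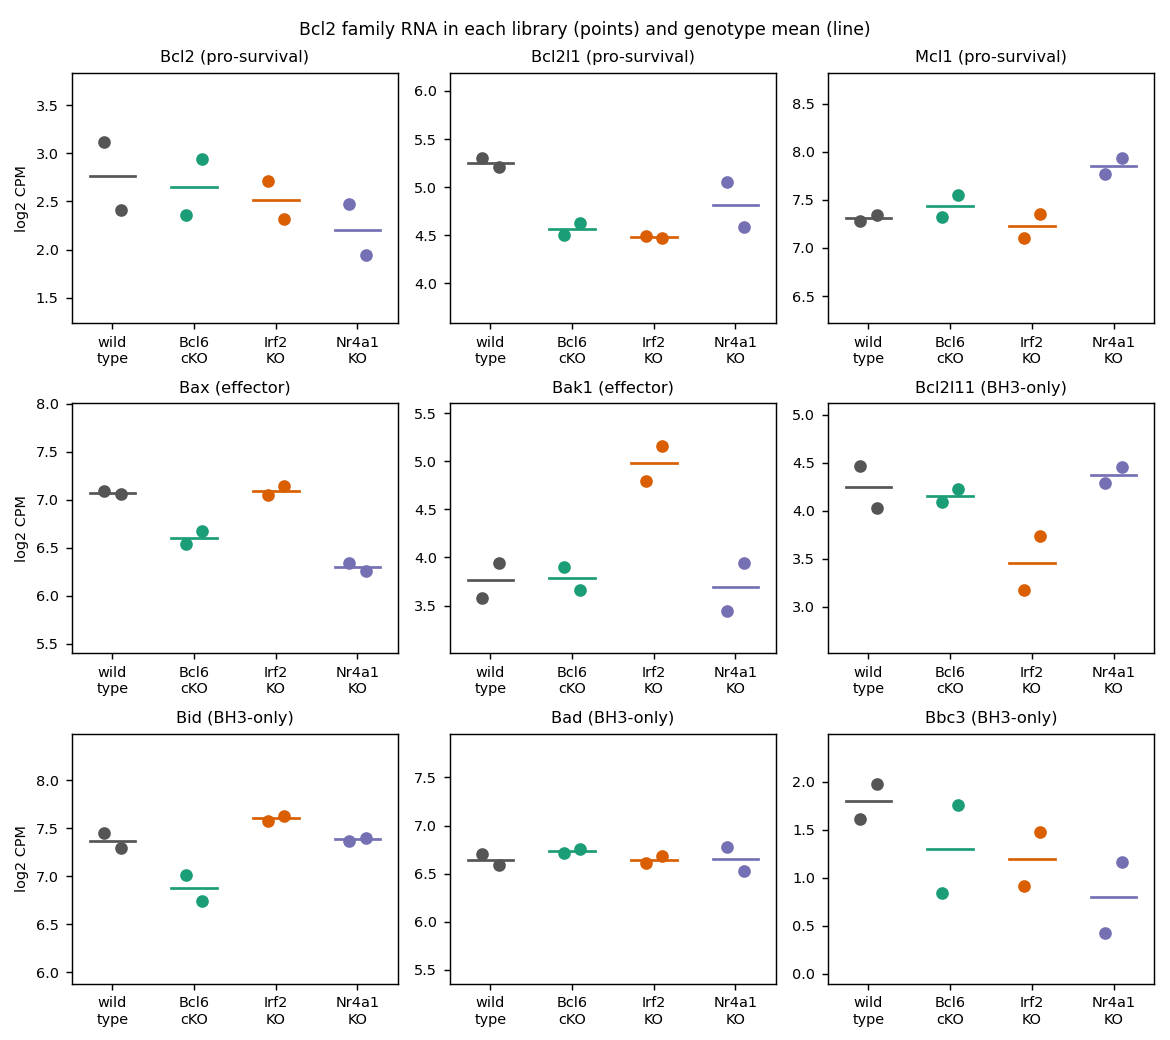
Level of each gene in log2 CPM in the 8 libraries, 1 panel per gene, with a point per library and a line at each genotype mean. Bak1 reads 4.79 and 5.16 in Irf2 KO and at most 3.95 elsewhere, Bax reads 6.35 and 6.26 in Nr4a1 KO, and Bad lies between 6.53 and 6.78 throughout.

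Among the pro-survival genes, Bcl2l1 was lower in Irf2 KO and Mcl1 was higher in Nr4a1 KO. Bcl2l1 (ENSMUSG00000007659, GRCm38 chromosome 2, 152780668 to 152831728, minus strand) makes Bcl-xL, which holds Bax and Bak in check. Its level was 5.30 and 5.21 log2 CPM in wild type, 4.50 and 4.63 in Bcl6 cKO, 4.49 and 4.47 in Irf2 KO, and 5.05 and 4.59 in Nr4a1 KO. Both wild-type libraries lay above all 6 knockout libraries. It fell by 0.77 ± 0.17 (log2, SE, n = 2 and 2; 1.71-fold) in Irf2 KO, with an adjusted p of 0.0141 in limma. In Bcl6 cKO the difference was -0.69 ± 0.17, a size close to that in Irf2 KO, but the adjusted p was 0.0510 and the gene was not called. The authors' deposited table gives Bcl2l1 in Bcl6 cKO a log2 fold change of -0.69 and an adjusted p of 0.0249. In Nr4a1 KO the difference was -0.43 ± 0.17 with an adjusted p of 0.115, and the 2 Nr4a1 KO libraries lay 0.47 apart. Without either wild-type or either Irf2 KO library the Irf2 KO call was lost, with an adjusted p of up to 0.0701, and it was 0.0520 after correction for GC content and length.

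Mcl1 (ENSMUSG00000038612, chromosome 3, 95658788 to 95663176, plus strand), whose product is degraded within the cell and replaced quickly, was more abundant than Bcl2l1 and Bcl2. It stood at 7.28 and 7.34 log2 CPM in wild type, 7.32 and 7.55 in Bcl6 cKO, 7.10 and 7.35 in Irf2 KO, and 7.77 and 7.93 in Nr4a1 KO. Both Nr4a1 KO libraries lay above the other 6. It rose by 0.54 ± 0.12 (1.46-fold) in Nr4a1 KO against wild type, with an adjusted p of 0.0201 in limma. The median-centred rise was 0.67, with an adjusted p of 0.00706. In Bcl6 cKO the difference from wild type was 0.12 ± 0.12 (adjusted p 0.612), and in Irf2 KO it was -0.08 ± 0.12 (adjusted p 0.660). The Nr4a1 KO call was lost without wild-type replicate 1 or 2 or Nr4a1 KO replicate 2, with an adjusted p of up to 0.0903.

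Bcl2 (ENSMUSG00000057329, chromosome 1, 106538178 to 106714274, minus strand) was read in 184 to 504 reads per library. Its level was 3.12 and 2.41 log2 CPM in wild type, 2.36 and 2.94 in Bcl6 cKO, 2.72 and 2.32 in Irf2 KO, and 2.47 and 1.94 in Nr4a1 KO. The wild-type libraries lay 0.71 apart and overlapped every knockout. No comparison called it, and the 95% interval of the Nr4a1 KO difference, -1.31 to 0.19, leaves room for a sizeable fall. Of the A1 genes, Bcl2a1a and Bcl2a1d had rows but did not reach a mean of 1 CPM. Bcl2a1a had 95 and 50 reads in wild type, 40 and 62 in Bcl6 cKO, 10 and 25 in Irf2 KO, and 39 and 45 in Nr4a1 KO. Bcl2a1d had 72 and 72 reads in wild type, 38 and 30 in Bcl6 cKO, 23 and 38 in Irf2 KO, and 69 and 56 in Nr4a1 KO. Of the windows of 150 bases in the transcripts, 28.2% of those of Bcl2a1a, 14.2% of Bcl2a1b and 30.3% of Bcl2a1d occur unchanged in another A1 gene, so counting may split or drop reads of these copies and their levels are uncertain.

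The effectors gave the smallest adjusted p values of the family against wild type, Bak1 being higher in Irf2 KO and Bax lower in Nr4a1 KO. Bak1 (ENSMUSG00000057789, chromosome 17, 27019810 to 27029009, minus strand) makes the effector that sits in the mitochondrial membrane. It stood at 3.58 and 3.95 log2 CPM in wild type, 3.90 and 3.67 in Bcl6 cKO, 4.79 and 5.16 in Irf2 KO, and 3.44 and 3.95 in Nr4a1 KO. The 2 Irf2 KO libraries, with 1341 and 1956 reads, lay above all others, which had 553 to 925 reads and overlapped one another. Bak1 rose by 1.22 ± 0.23 (2.32-fold) in Irf2 KO against wild type, with an adjusted p of 0.00876 in limma. The values against wild type were 0.02 ± 0.23 for Bcl6 cKO (adjusted p 0.966) and -0.07 ± 0.23 for Nr4a1 KO (adjusted p 0.873). Without Irf2 KO replicate 2 the adjusted p of the rise was 0.0613, and without any other single library it stayed below the threshold. Bak1 had the largest spread of genotype means among the 9 genes (SD 0.62), followed by Bcl2l11 (SD 0.41).

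Bax (ENSMUSG00000003873, chromosome 7, 45461697 to 45466898, minus strand) makes the effector that moves from the cytosol to mitochondria. It stood at 7.09 and 7.05 log2 CPM in wild type, 6.54 and 6.67 in Bcl6 cKO, 7.05 and 7.14 in Irf2 KO, and 6.35 and 6.26 in Nr4a1 KO. Nr4a1 KO libraries were lowest, Bcl6 cKO libraries came next, and Irf2 KO and wild-type libraries overlapped. It fell by 0.77 ± 0.10 (1.70-fold) in Nr4a1 KO, with an adjusted p of 0.00112 in limma, and the call held whichever library was left out, with an adjusted p of up to 0.0102. In Bcl6 cKO it fell by 0.47 ± 0.10 (1.38-fold, adjusted p 0.0329). The difference in Irf2 KO was 0.02 ± 0.10, with a 95% interval of -0.20 to 0.25. The longest annotated transcript of Bax has a GC content of 63.5%. After correction for GC content and length the difference was -0.37 in Nr4a1 KO (adjusted p 0.0551) and -0.27 in Bcl6 cKO (adjusted p 0.228). The Bcl6 cKO call was also lost after median centring (adjusted p 0.0591) and on leaving out any 1 library other than those of Nr4a1 KO.

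Since Bax made most of the effector RNA, the summed effector level per kb followed it. The sum of Bax and Bak1 was 91.2 and 90.7 CPM per kb in wild type, 65.1 and 70.0 in Bcl6 cKO, 95.3 and 104.6 in Irf2 KO, and 56.2 and 55.0 in Nr4a1 KO. Bak1 made up 5.43% and 7.05% of that sum in wild type and 12.1% and 14.2% in Irf2 KO. Its share was 9.55% and 7.54% in Bcl6 cKO and 8.03% and 11.7% in Nr4a1 KO, where Bax was lower. The sum of Mcl1, Bcl2l1 and Bcl2, without other pro-survival genes, was 55.1 and 56.0 CPM per kb in wild type and 52.2 and 61.1 in Bcl6 cKO. It was 45.8 and 53.2 in Irf2 KO, and 71.8 and 77.2 in Nr4a1 KO. On this scale the sum of these 3 genes stood above the effector sum in the Nr4a1 KO libraries and below it in the other 6 libraries. That order depends on the division by exon length, which is 3418 bases for Mcl1 and 1576 for Bax. In CPM without that division, Mcl1 alone stood above Bax in every library, with 156 against 136 in wild-type replicate 1. The sums are also not corrected for GC content and length, a correction that made the Bax fall in Nr4a1 KO smaller. These sums are descriptions, with no test, and RNA levels do not give the ratio of the proteins.

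Among the BH3-only genes, Bcl2l11 was lower in Irf2 KO and Bid was lower in Bcl6 cKO. Bcl2l11 (ENSMUSG00000027381, chromosome 2, 128126038 to 128162547, plus strand) makes Bim, which binds all pro-survival members and is a main trigger of death in blood cells deprived of growth factors. It stood at 4.46 and 4.03 log2 CPM in wild type, 4.09 and 4.23 in Bcl6 cKO, 3.17 and 3.74 in Irf2 KO, and 4.29 and 4.46 in Nr4a1 KO. Both Irf2 KO libraries lay below the other 6. It fell by 0.79 ± 0.22 (1.73-fold) in Irf2 KO against wild type, with an adjusted p of 0.0375 in limma. The call was lost after median centring (-0.69, adjusted p 0.0591) and after correction for GC content and length (adjusted p 0.0722). It was also lost when wild-type replicate 1 or 2, Bcl6 cKO replicate 1 or 2, or Irf2 KO replicate 1 was left out, with an adjusted p of up to 0.195.

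Bid (ENSMUSG00000004446, chromosome 6, 120891930 to 120916853, minus strand), which caspase-8 cuts to link death receptors to mitochondria, stood at 7.45 and 7.29 log2 CPM in wild type, 7.01 and 6.74 in Bcl6 cKO, 7.58 and 7.62 in Irf2 KO, and 7.37 and 7.40 in Nr4a1 KO. Both Bcl6 cKO libraries lay below the other 6, and the Irf2 KO pair lay above them. It fell by 0.49 ± 0.11 (1.41-fold) in Bcl6 cKO, with an adjusted p of 0.0419 in limma. Neither the difference of 0.23 ± 0.11 in Irf2 KO (adjusted p 0.172) nor that of Nr4a1 KO, 0.01 ± 0.11 (adjusted p 0.951), passed the test. The Bcl6 cKO call was lost after median centring (adjusted p 0.0881), after correction for GC content and length (adjusted p 0.113), and on leaving out any 1 library other than those of Nr4a1 KO.

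Bad (ENSMUSG00000024959, chromosome 19, 6941861 to 6951899, plus strand), which survival kinases keep inactive by phosphorylation, was the steadiest of the 9. It stood at 6.70 and 6.59 log2 CPM in wild type, 6.71 and 6.76 in Bcl6 cKO, 6.61 and 6.68 in Irf2 KO, and 6.78 and 6.53 in Nr4a1 KO. The 4 genotype means spanned 0.09 on the log2 scale, and the 95% intervals of the differences from wild type were -0.16 to 0.34 for Bcl6 cKO, -0.25 to 0.25 for Irf2 KO and -0.24 to 0.27 for Nr4a1 KO. Bbc3 (ENSMUSG00000002083, chromosome 7, 16308393 to 16318205, plus strand) makes Puma, a target of p53, and was read in 68 to 201 reads per library. Its level was 1.61 and 1.97 log2 CPM in wild type, 0.84 and 1.76 in Bcl6 cKO, 0.92 and 1.47 in Irf2 KO, and 0.43 and 1.17 in Nr4a1 KO. Wild type lay above both Irf2 KO and both Nr4a1 KO libraries and overlapped Bcl6 cKO. The difference from wild type was -1.0 ± 0.41 in Nr4a1 KO (adjusted p 0.141, 95% interval -1.93 to -0.06), and no comparison called it.

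**Figure D3:**
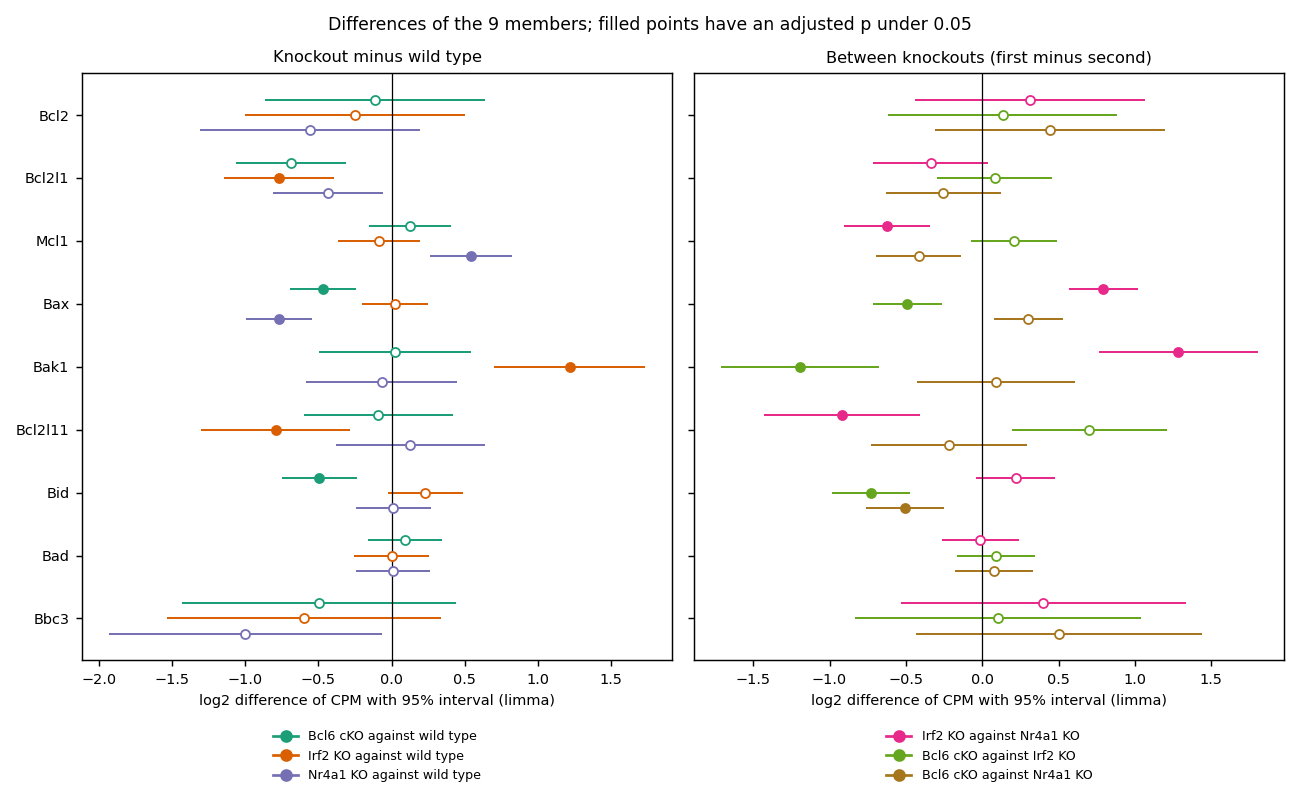
Log2 difference of each gene with its 95% interval, for each knockout against wild type (left) and between the knockouts (right, first named minus second). Filled points passed an adjusted p of 0.05 and open points did not. The filled points against wild type are Bax and Bid in Bcl6 cKO (-0.47 and -0.49), Bak1, Bcl2l1 and Bcl2l11 in Irf2 KO (1.22, -0.77 and -0.79), and Mcl1 and Bax in Nr4a1 KO (0.54 and -0.77).

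The 3 comparisons with wild type share the wild-type libraries, so the knockouts were also set against one another. Irf2 KO and Nr4a1 KO differed in 4 of the 9 genes (2 higher and 2 lower in Irf2 KO), beside 22.3% of all genes (12.4% higher and 9.94% lower). Bak1 was higher in Irf2 KO by 1.28 ± 0.23 (2.44-fold), with an adjusted p of 0.00524 in limma. Bax was higher in Irf2 KO by 0.79 ± 0.10 (1.73-fold), with an adjusted p of 0.000910, and this call also held after correction for GC content and length (0.42, adjusted p 0.0215). Thus both effectors had more RNA in Irf2 KO than in Nr4a1 KO, and both calls held whichever library was left out. Mcl1 was lower in Irf2 KO, with a difference of -0.63 ± 0.12 (1.54-fold) and an adjusted p of 0.00822, or 0.0561 without Irf2 KO replicate 1. Bcl2l11 was lower in Irf2 KO, with a difference of -0.92 ± 0.22 (1.89-fold) and an adjusted p of 0.0204, and its call was lost without Irf2 KO replicate 1 or Nr4a1 KO replicate 2.

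Bcl6 cKO and Irf2 KO differed in 3 of the 9 genes, all lower in Bcl6 cKO, beside 9.55% of all genes (5.68% higher and 3.87% lower). Bid gave a difference of -0.73 ± 0.11 (1.65-fold, adjusted p 0.00806), Bak1 one of -1.19 ± 0.23 (2.29-fold, adjusted p 0.0175) and Bax one of -0.49 ± 0.10 (1.41-fold, adjusted p 0.0207). Bcl2l11 was not called there (0.70 ± 0.22, adjusted p 0.0849), and neither was Bcl2l1 (0.08 ± 0.17, 95% interval -0.29 to 0.46). Each of these 3 calls was lost when 1 of several libraries was left out, with an adjusted p of up to 0.0696 for Bid, 0.136 for Bak1 and 0.129 for Bax. The Bax call was also lost after correction for GC content and length (-0.32, adjusted p 0.0911). Between Bcl6 cKO and Nr4a1 KO 1 gene differed, beside 5.75% of all genes (4.97% higher and 0.776% lower). Bid was lower in Bcl6 cKO by a difference of -0.51 ± 0.11 (1.42-fold, adjusted p 0.0331), with an adjusted p of up to 0.223 without 1 library. Mcl1 (-0.42 ± 0.12, adjusted p 0.100) and Bax (0.30 ± 0.10, adjusted p 0.135) did not pass the test there.

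The genes whose levels over the 8 libraries most resembled those of the 2 most variable members were looked up among 10307 tested protein-coding genes. For Bak1 the highest Pearson correlations were 0.983 with Gemin6, a part of the SMN complex, 0.979 with Mrps28 and 0.971 with Mrps16, both proteins of the mitochondrial ribosome. For Bcl2l11 they were 0.971 with Trib1, a pseudokinase, 0.970 with Castor2, an arginine-sensing protein family member, and 0.965 with Skil, a SMAD corepressor. The points are libraries of 4 genotypes, in which genes that differ between the same genotypes correlate, and the highest of so many values are high by selection.

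The pathway around the family was followed through 6 lists with 72 genes, of which 60 were tested. Against wild type 2 of the 60 were called in Bcl6 cKO, both lower, beside 5.01% of all genes. In Irf2 KO 2 were higher and 6 lower, beside 9.26% and 12.3% of all genes. In Nr4a1 KO 1 was higher and 13 were lower, beside 3.94% and 11.2% of all genes. The median difference over the 60 genes was 0.03, -0.12 and -0.11 in that order. After median centring of each library the share of higher calls among all called genes went from 27.1% to 40.7% in Bcl6 cKO, from 42.9% to 59.3% in Irf2 KO and from 26.1% to 50.7% in Nr4a1 KO, so the balance of rises and falls depends on the scaling.

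Of the other Bcl2 family genes, 8 of 16 were tested. Bcl2l13, a mitochondrial protein of the family, fell by 0.74 ± 0.17 in Nr4a1 KO (adjusted p 0.0195), and no other was called against wild type. Pmaip1, which makes the BH3-only protein Noxa, the partner of Mcl-1, was chosen for mention after its values were seen. It stood at 2.36 and 3.04 log2 CPM in wild type, 4.90 and 4.79 in Bcl6 cKO, 1.72 and 2.55 in Irf2 KO, and -1.32 and 1.52 in Nr4a1 KO. The Bcl6 cKO pair was highest, the Nr4a1 KO pair was lowest, and the latter lay 2.84 apart. Neither its difference of 2.14 ± 0.75 in Bcl6 cKO (adjusted p 0.149) nor that of -2.60 ± 0.75 in Nr4a1 KO (adjusted p 0.0508) was called against wild type. Bcl6 cKO exceeded Nr4a1 KO by 4.74 ± 0.75 (adjusted p 0.00716), or with an adjusted p of 0.0792 at most when 1 library was left out.

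Downstream of the pores, 8 of 8 listed apoptosome and caspase genes were tested. Cycs, which makes the cytochrome c that Bax and Bak pores release, stood at 7.95 and 7.82 log2 CPM in wild type and at 8.60 and 8.88 in Irf2 KO. It rose by 0.86 ± 0.14 (1.81-fold) in Irf2 KO (adjusted p 0.00551), a call that held without any 1 library. Dffb, the nuclease that cuts DNA in dying cells, fell by 0.49 ± 0.13 in Irf2 KO (adjusted p 0.0352) and by 0.58 ± 0.13 in Nr4a1 KO (adjusted p 0.0226). Both Dffb calls were lost after median centring (adjusted p 0.0803 and 0.0556).

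Death receptor and necroptosis genes held 6 of the 14 called pathway genes of Nr4a1 KO, with 5 lower and 1 higher of 11 tested, beside 11.2% lower and 3.94% higher among all genes. Tnfrsf1a, the main TNF receptor for death signals, stood at 7.74 and 8.02 log2 CPM in wild type, 7.53 and 7.57 in Bcl6 cKO, 7.38 and 7.60 in Irf2 KO, and 6.38 and 6.69 in Nr4a1 KO. The Nr4a1 KO pair was lowest, and the gene fell by 1.34 ± 0.14 (2.54-fold) there, with an adjusted p of 0.000372 in limma that stayed at or below 0.00373 without any 1 library. Its adaptor Tradd fell by 1.85 ± 0.44 in Nr4a1 KO (adjusted p 0.0230), where the wild-type libraries were 4.84 and 3.22 and thus far apart. The adaptor Fadd fell by 0.82 ± 0.23 (adjusted p 0.0433), and Casp8, the initiator caspase that cuts Bid, fell by 0.59 ± 0.11 (adjusted p 0.00885). Ripk1, a kinase of the same complex, rose by 0.64 ± 0.17 (adjusted p 0.0386). The call of Casp8 was lost without wild-type replicate 2, that of Tradd without Bcl6 cKO replicate 1 or Nr4a1 KO replicate 1, that of Ripk1 without any 1 of 5 libraries and that of Fadd without any 1 of 7.

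Tnfrsf1b, the other TNF receptor, was lower in all 3 knockouts, at 7.42 and 7.91 log2 CPM in wild type, 6.72 and 6.84 in Bcl6 cKO, 6.50 and 6.52 in Irf2 KO, and 6.81 and 6.74 in Nr4a1 KO. No knockout library reached the wild-type range. The falls were 0.88 ± 0.15 (adjusted p 0.0147), 1.15 ± 0.15 (adjusted p 0.00252) and 0.88 ± 0.15 (adjusted p 0.00489) in that order, all against the same wild-type libraries. Fas, the receptor of Fas ligand, stood at 5.39 and 5.44 log2 CPM in wild type and at 4.42 and 4.93 in Irf2 KO, where it fell by 0.74 ± 0.16 (adjusted p 0.0165).

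Among inhibitors of apoptosis and their antagonists, 7 of 8 were tested. Htra2, a mitochondrial protease that is released with cytochrome c and removes inhibitors of caspases, stood at 5.58 and 5.72 log2 CPM in wild type, 5.76 and 6.12 in Irf2 KO, and 2.99 and 4.31 in Nr4a1 KO. It fell by 2.0 ± 0.35 (4.0-fold) in Nr4a1 KO with an adjusted p of 0.00574 in limma, and the Nr4a1 KO libraries lay 1.32 apart. Birc2 and Birc3, the cIAP ubiquitin ligases of TNF signalling, fell in Irf2 KO by 0.70 ± 0.19 (adjusted p 0.0329) and 0.55 ± 0.15 (adjusted p 0.0345). Both were lost after median centring, with adjusted p values of 0.0585 and 0.0700.

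Of p53 and its death targets, 9 of 10 were tested and 2 were called, both in Nr4a1 KO. Cdkn1a, the p53 target p21, stood at 7.02 and 6.99 log2 CPM in wild type and at 6.25 and 6.37 in Nr4a1 KO, where it fell by 0.70 ± 0.17 (adjusted p 0.0294). Trp53 fell by 0.33 ± 0.09 (adjusted p 0.0416), a call lost after median centring (adjusted p 0.154) and without any 1 of the 8 libraries. Of 17 regulators of Bcl2 family proteins, all tested, Pim2 was lower in all 3 knockouts. Pim2, a survival kinase that phosphorylates Bad, stood at 2.50 and 1.88 log2 CPM in wild type, -0.32 and -0.40 in Bcl6 cKO, -0.03 and 1.19 in Irf2 KO, and -0.17 and 0.02 in Nr4a1 KO. It fell by 2.55 ± 0.44 (adjusted p 0.0156), 1.61 ± 0.44 (adjusted p 0.0338) and 2.27 ± 0.44 (adjusted p 0.00975), against the same wild-type libraries.

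Vdac1, a channel of the outer mitochondrial membrane, moved in opposite directions in Irf2 KO and Nr4a1 KO. It stood at 7.0 and 7.28 log2 CPM in wild type, 7.69 and 7.76 in Irf2 KO, and 6.50 and 6.82 in Nr4a1 KO. It rose by 0.59 ± 0.14 in Irf2 KO (adjusted p 0.0190) and fell by 0.48 ± 0.14 in Nr4a1 KO (adjusted p 0.0482), the latter lost after median centring (adjusted p 0.112). Set against each other, Irf2 KO exceeded Nr4a1 KO by 1.07 ± 0.14 (2.10-fold, adjusted p 0.00105). Vdac2, which holds Bak at mitochondria, fell by 0.46 ± 0.12 in Nr4a1 KO (adjusted p 0.0385), and this call was lost after median centring (adjusted p 0.110).

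**Figure D4:**
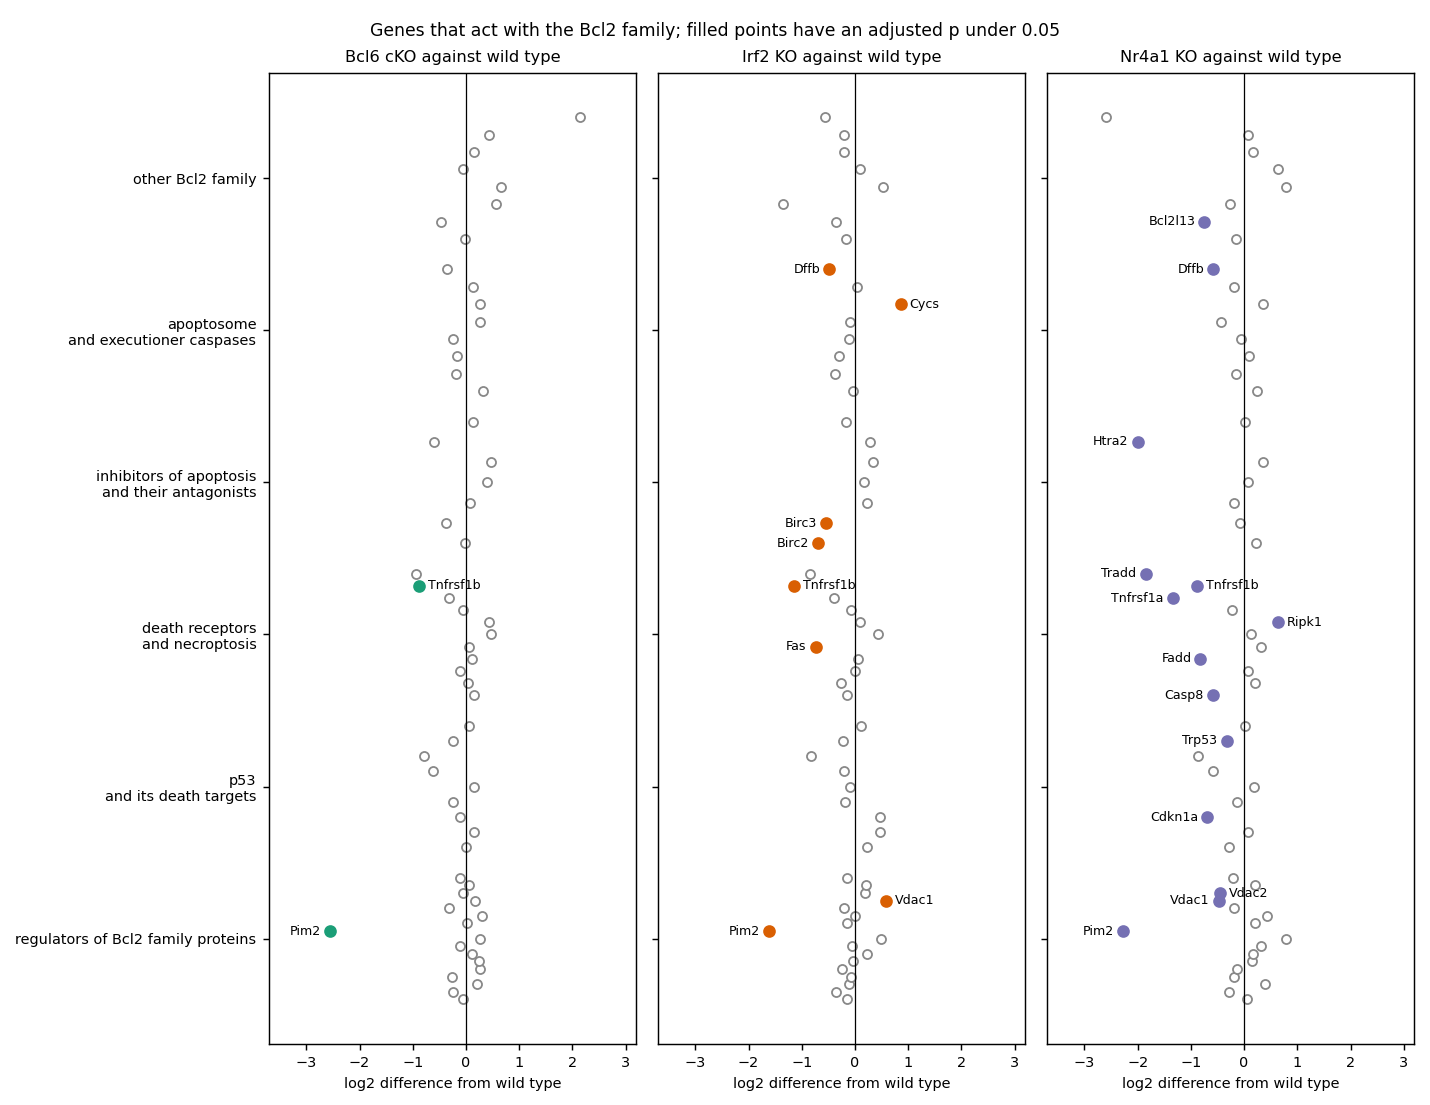
Log2 difference from wild type of the 60 tested pathway genes, in 1 panel per knockout with the genes grouped by list, 1 point per gene, and filled points with names for the genes called at an adjusted p of 0.05. Named points include Pim2 (-2.55) in Bcl6 cKO, Cycs (0.86) and Tnfrsf1b (-1.15) in Irf2 KO, and Tnfrsf1a (-1.34), Htra2 (-2.0) and Pim2 (-2.27) in Nr4a1 KO.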

How the data were processed

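RNA of 8 libraries (4 genotypes, 2 each) was measured. Per the labels, 10 ng of RNA went into each SMARTer Ultra Low library, read as pairs of 150 bases. Tools named in the submitters' processing notes are STAR, featureCounts of Subread, Salmon, bcl2fastq and limma, with build mm10; the strand setting of counting is not stated there. The deposited table holds log2 CPM per library. The authors added 0.5 to the reads and 1 to the scaled library total before taking log2. The 0.5 was checked by recovering reads, with the lowest value of each library taken as a gene without reads. All values came within 0.01 of a whole read. The added 1 is absorbed in the total recovered this way, so it was not checked. The table also holds the authors' own log2 fold changes, p-values and adjusted p-values against wild type, per the file headers, used only as an alternative, and a signed linear fold score made by the authors, not used.

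After 45 repeated rows were left out, log2 CPM was fitted with limma 3.58.1 in R 4.3.3 (4 genotype means, all 8 libraries, empirical Bayes with trend) for 12752 genes with a mean log2 CPM of at least that of 1 CPM, with Benjamini-Hochberg adjustment per comparison, a threshold of 0.05, 4 residual and 4.66 prior degrees of freedom. Fits without 1 library assume that the lone library of its genotype varies like the others. The procedure was run on simulated data with planted changes. A recovery rate was required only for the largest planted changes, which exceed every called change of the 9 genes. The check thus does not show how many changes of their size are missed. An exact permutation test of 2 against 2 libraries cannot go below p = 0.333, so none is given. Positions, exon lengths and GC content came from GENCODE M21 on GRCm38, promoters from RefSeq on GRCm38.p6. The replicate numbers were not taken to pair the libraries. Python 3.11.15 with matplotlib 3.10.9 drew the figures.

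The members, the lists and the tests were chosen with earlier results of these data known. Named are all 9 members, up to 4 called genes per pathway list and comparison with wild type by size of change, the 3 genes most like each of the 2 members with the largest SD of genotype means, and the targeted genes. Casp8, Ripk1 and Pmaip1 were named in addition after their values were seen. Of the pathway lists 1 gene is not reported here, and the counts are without it.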

Additional observations from a re-analysis of the deposited data

How the results depend on the processing

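The 54 results of 9 genes in 6 comparisons, 15 of them called, were recomputed under up to 18 alternatives. The authors' deposited test, 1 of these, covers only the comparisons with wild type, so results between knockouts were not put to it. Each count below is over the alternatives that cover a result. None of the called results changed direction, 2 were called under every alternative, 6 under every alternative that kept all 8 libraries, and 3 whichever library was left out. Of the results not called, 16 had the other sign under at least 1 alternative and 4 were called under at least 1. The causes of these changes were not tested.

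Genes of the family called in Bcl6 cKO against wild type numbered 2, and 0 without a trend of the prior variance, with quantile normalization, with median centring and with the GC content and length correction. They numbered 3 with a filter of 4 CPM, with voom on recovered reads and in the authors' deposited table. In Irf2 KO against wild type 3 became 1 with the GC content and length correction. There they became 2 without the trend, with quantile normalization, with median centring and with only the 2 genotypes compared. In Nr4a1 KO against wild type 2 became 1 without the trend and with the GC content and length correction. In Irf2 KO against Nr4a1 KO 4 became 3 with only the 2 genotypes compared. In Bcl6 cKO against Irf2 KO 3 became 2 without the trend and with the GC content and length correction. In Bcl6 cKO against Nr4a1 KO 1 became 0 without the trend and with only the 2 genotypes compared, and 2 with the replicate block.

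Of the changes over all genes, only the larger ones are given. The 639 calls in Bcl6 cKO against wild type became 259 without the trend and 390 with the GC content and length correction. In Irf2 KO against wild type 2755 became 1829 with that correction. With only the 2 genotypes compared, 1925 in Nr4a1 KO against wild type became 1054, 2850 in Irf2 KO against Nr4a1 KO became 1770, 1218 in Bcl6 cKO against Irf2 KO became 1947, and 733 in Bcl6 cKO against Nr4a1 KO became 484. Without the trend the 1218 became 537. Quantile normalization moved the share of higher calls from 27.1% to 39.7% in Bcl6 cKO, from 42.9% to 53.5% in Irf2 KO and from 26.1% to 46.8% in Nr4a1 KO, each against wild type, and with only the 2 genotypes compared it was 12.6% in Nr4a1 KO.

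With 1 library left out at a time, the family members called ranged from 0 to 3 in Bcl6 cKO against wild type, 1 to 3 in Irf2 KO against wild type, 1 to 3 in Nr4a1 KO against wild type, 2 to 4 in Irf2 KO against Nr4a1 KO, 0 to 3 in Bcl6 cKO against Irf2 KO and 0 to 1 in Bcl6 cKO against Nr4a1 KO. Genes called ranged, in the same order, from 33 to 917, 1076 to 3190, 1065 to 1775, 1460 to 2705, 138 to 1647 and 250 to 859.

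Samples with the same replicate number deviated together with low correlations, of -0.00287 to 0.183. Such values cannot show whether libraries were collected or prepared in pairs, and the numbers were not taken as pairs. With the replicate block none of the 15 calls was lost and 1 was gained, Mcl1 in Bcl6 cKO against Nr4a1 KO (adjusted p 0.0386 in limma). With 68 to 201 reads of Bbc3 and 184 to 504 of Bcl2 per library, these 2 genes had the widest 95% intervals of the 9.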
